A study of Mus musculus with 9 samples.

Results

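Isl1 neurons and Nr2f2 neurons are 2 classes of inhibitory neuron of the mouse central amygdala, each defined by the mRNA of a transcription factor that the other class lacks. A gene scored a cell as positive when it made up at least 1 of every 10000 gene counts there. A cell was inhibitory if positive for Gad1, Gad2 or Slc32a1 and negative for Slc17a6 and Slc17a7. Of the 829 cells in the series, 810 were inhibitory. Isl1 neurons were the 74 inhibitory cells positive for Isl1 and negative for Nr2f2, and Nr2f2 neurons were the 114 positive for Nr2f2 and negative for Isl1, 188 cells in all. A further 620 inhibitory cells were positive for neither gene and serve as a reference. The 2 cells positive for both, found in sample 5, were left out. The cells come from central amygdala of B6 mice, wild-type, by single-cell RNA-seq in 9 samples of 1 group. The tissue was cut out of acute slices, dissociated and pooled. No treatment, age or sex is named in the sources used here, and both classes come from the same samples.

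Isl1 encodes a LIM-homeodomain transcription factor known for its part in the development of striatal projection neurons, cholinergic neurons and motor neurons. Nr2f2 encodes COUP-TFII, an orphan nuclear receptor known for marking interneurons that arise in the caudal ganglionic eminence and parts of the developing amygdala. The central amygdala is a nucleus of mostly GABAergic neurons, commonly divided by Prkcd (protein kinase C delta) and by the peptide precursors Sst (somatostatin), Crh (corticotropin-releasing hormone), Nts (neurotensin) and Tac2 (neurokinin B).

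Each sample held 85 to 95 cells and 8522750 to 22730327 gene counts. Samples 1 to 9 gave 17, 9, 7, 9, 4, 10, 6, 6 and 6 Isl1 neurons, and 7, 13, 11, 14, 9, 11, 16, 17 and 16 Nr2f2 neurons. Within a sample, the counts of each class were summed if both classes reached 5 cells, which left out sample 5 and kept 70 Isl1 and 105 Nr2f2 neurons of 8 samples. The deposited cell table gives the 9 samples 3 animal numbers crossed with 3 date fields. The sources used here do not say whether each sample is a separate animal, so n counts samples, and p-values cover only the spread among these samples, which may be technical. If equal numbers mark the same animal, samples share animals and these p-values are too small. Of 376 cell barcodes 368 occur in more than 1 sample, and 0 count columns were identical. The pan-neuronal gene Snap25, which encodes a synaptic vesicle fusion protein, was positive in 72 of 74 Isl1 and 112 of 114 Nr2f2 neurons. No doublet caller was run.

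The genes that define the classes are described without a test. Isl1 had a median of 1.96 counts per 10000 in the Isl1 neurons, and 38 of the 74 cells lay under 2. The highest value, 24.0, was 1 count in a cell with only 417 gene counts. The lowest Isl1 neurons had 1.01 and 1.02 counts per 10000, and the highest cells outside the class had 0.995 and 0.962. Nr2f2 had a median of 2.63 and a highest value of 21.8 counts per 10000 in the Nr2f2 neurons, with 42 of the 114 under 2. The lowest cells inside were at 1.01 and 1.05, and the highest outside at 0.995 and 0.962. Any count of Isl1 was found in 4 of 114 Nr2f2 neurons, and any count of Nr2f2 in 5 of 74 Isl1 neurons. The enzymes of GABA synthesis, also part of the rule, differed in opposite directions. Gad1 ranged from 290 to 695 CPM (counts of the gene scaled to the total gene counts of the sum) in the sums of the Isl1 neurons with a median of 406, and from 606 to 959 with a median of 680 in those of the Nr2f2 neurons. Gad2 ranged from 763 to 1157 CPM with a median of 886 in Isl1 neurons, and from 404 to 922 with a median of 499 in Nr2f2 neurons.

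The Isl1 neurons had more gene counts per cell. Whether they held more RNA or were sequenced more deeply was not tested. The mean over samples of the median gene counts per cell was 172490 ± 68641 (SD, n = 8) in Isl1 and 112760 ± 21506 in Nr2f2 neurons, higher in Isl1 neurons in 8 of 8 samples (exact two-sided sign-flip permutation test, p = 0.00781, the smallest that 8 samples allow). Detected genes per cell averaged 5227 ± 581 and 4320 ± 249 (SD, n = 8), again higher in 8 of 8 samples (exact sign-flip permutation test, p = 0.00781, and the same adjusted over both measures). The lowest Isl1 neuron had 417 gene counts and the lowest Nr2f2 neuron 9418. As an alternative, cells were thinned to 74000 counts, with shallower cells left out, and classed again on the thinned counts. This gave 66 Isl1 and 88 Nr2f2 neurons beside the 70 and 105, and cells near the threshold may have changed class. Of the 123 genes called below that could still be tested, 111 were called again.

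Between Isl1 and Nr2f2 neurons 71 genes were higher in Isl1 neurons, which is 0.799% of the 8888 genes tested, and 60 were lower, which is 0.675%. Calls are those of edgeR's quasi-likelihood test on the summed counts with the sample as a block, at a Benjamini-Hochberg adjusted p under 0.05. In all 131 genes were called, 1.47% of those tested, against 1032 with an unadjusted p under 0.05. Among the called genes, 55 of the 71 and 44 of the 60 were over 2-fold. On simulated data the same fit recovered only 11% of 2-fold changes. Calls thus favour large folds, and these counts do not describe all genes tested. For 73 genes, 0.821% of those tested, the sums of the 2 classes did not overlap over the 8 samples, and 54 of these were among the called. Leaving out sample 2, 3, 4, 6, 7 or 8 lowered the counts to between 34 and 47 higher and 27 and 37 lower genes, and 52 of the 131 genes were called whichever sample was left out. Summed by animal number, which gives 3 sums a class, 100 genes were higher and 73 lower, and 83 of the 131 were called again, all 131 with the same sign. With cells positive for a classical marker left out, the minimum was lowered to 2 cells per class and sample. There 7 genes were higher and 9 lower, and all 109 called genes that could be tested kept their sign.

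**Figure D1:**
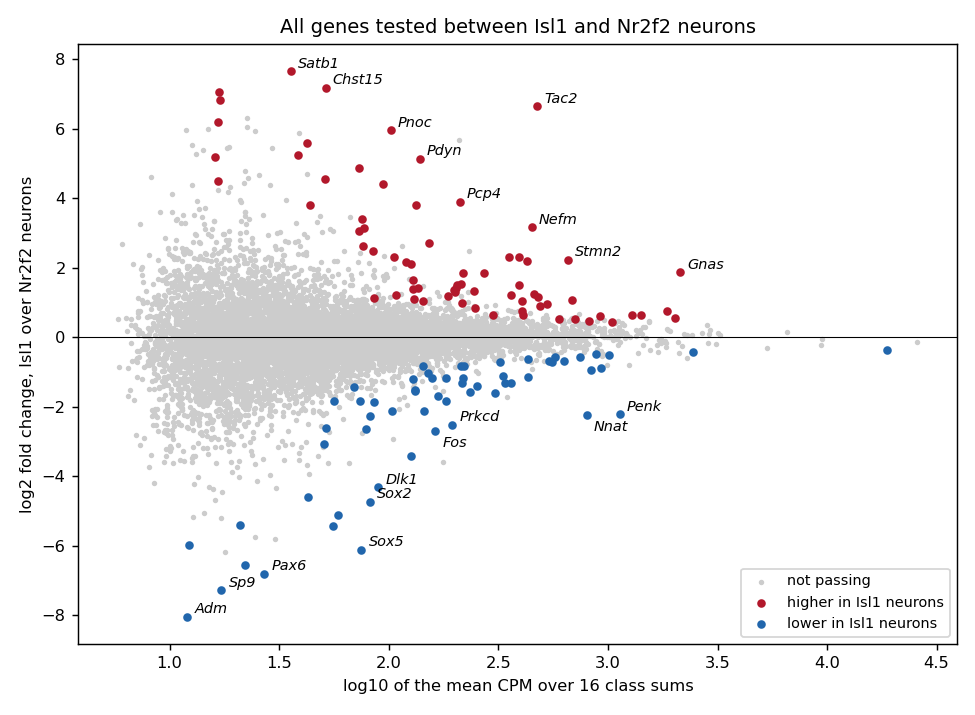
Each point is a gene tested between Isl1 and Nr2f2 neurons, with the log10 of its mean CPM over the 16 class sums on the x axis and the log2 fold change, Isl1 over Nr2f2, on the y axis. The 71 genes higher in Isl1 neurons are red and the 60 lower are blue. Satb1 (7.65) is the highest of the labelled genes and Adm, with 0 counts in Isl1 neurons, the lowest.

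The reference cells show on which side a gene of the contrast stands apart. In a fit of Isl1 neurons, Nr2f2 neurons and the cells positive for neither, 111 genes were higher (1.06% of 10472 tested) and 174 lower (1.66%) in Isl1 neurons than in the cells with neither, 2.72% in either direction. In Nr2f2 neurons 15 genes were higher (0.143%) and 70 lower (0.668%), 0.812% in either direction. These comparisons share the cells with neither, so they are set side by side only. The 71 and 60 genes placed next were called on the same Isl1 and Nr2f2 sums. That choice favours the signs seen, so the counts only describe. Of the 71 genes higher in Isl1 than in Nr2f2 neurons, 29 were higher in Isl1 neurons than in the reference and 1 was lower. In Nr2f2 neurons 17 of the 71 were lower than in the reference and 0 higher. Of the 60 genes lower in Isl1 than in Nr2f2 neurons, 43 were lower in Isl1 neurons than in the reference and 0 higher, while 3 were higher in Nr2f2 neurons than in the reference and 0 lower. Leaving out sample 4, 6, 7 or 8 lowered the calls of Isl1 neurons against the reference, to as few as 54 higher and 94 lower without sample 7. Leaving out sample 2, 4, 6 or 7 lowered those of Nr2f2 neurons, to as few as 4 higher and 31 lower without sample 6.

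**Figure D2:**
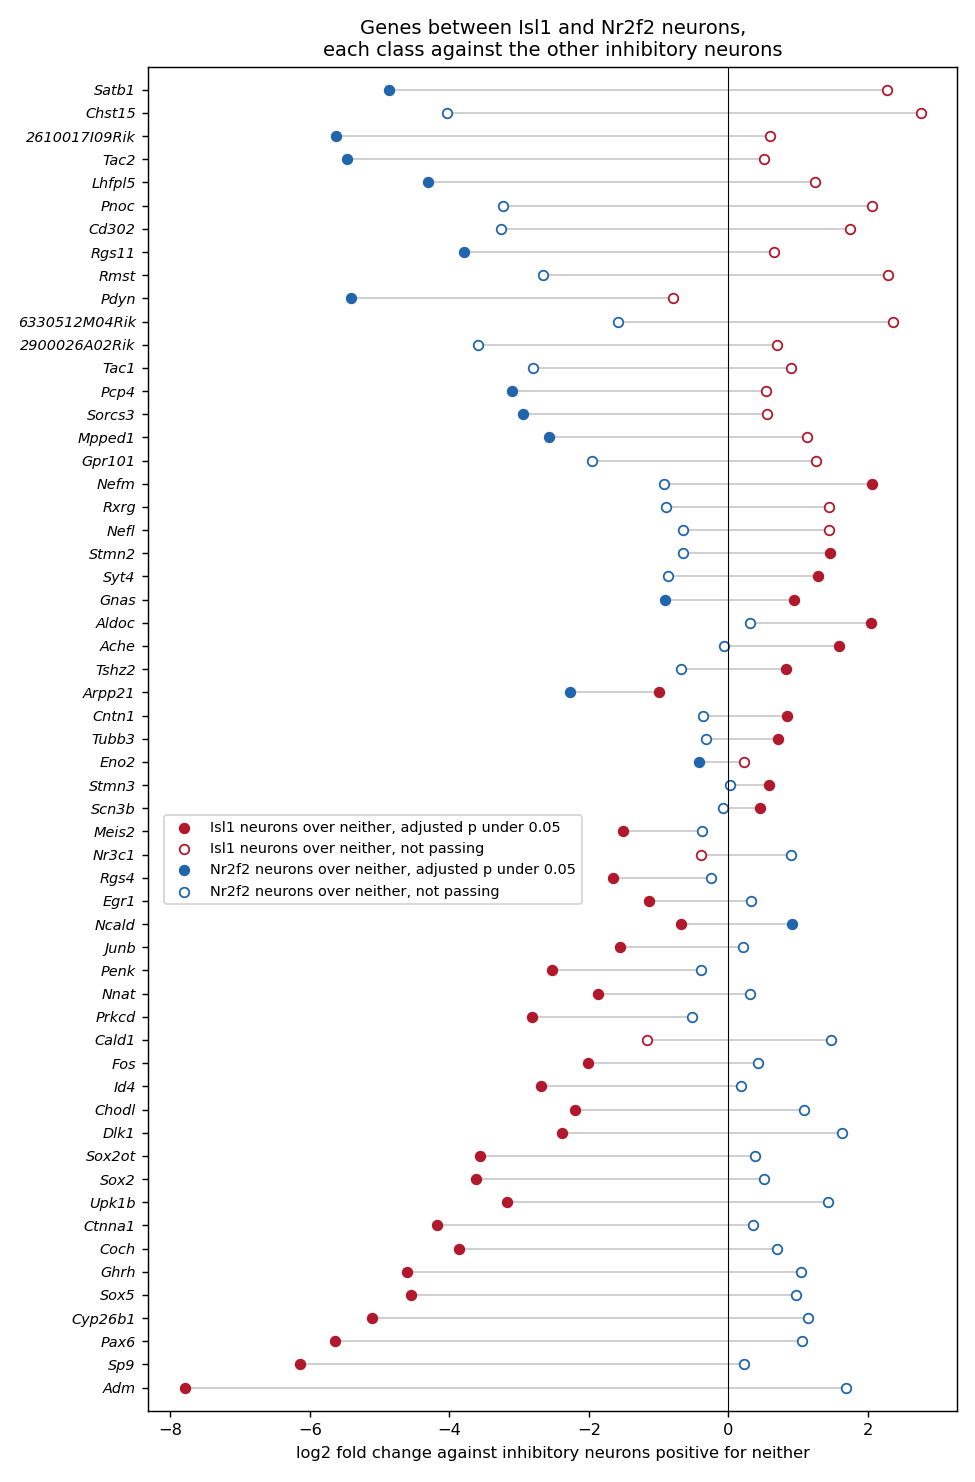
The named genes reported here that passed between the 2 classes, 1 row each, with the log2 fold change of Isl1 neurons (red) and of Nr2f2 neurons (blue) against inhibitory neurons positive for neither on the x axis. Filled points passed at an adjusted p under 0.05. Adm, Sp9, Pax6, Cyp26b1 and Sox5, at the bottom, have filled red points far to the left, and Satb1, Tac2, Pdyn and Pcp4 have filled blue points to the left.

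Nr2f2 neurons were often Prkcd cells and Isl1 neurons seldom were. Prkcd without Sst, Crh, Tac2 or Nts was positive in 4 of 74 Isl1, 43 of 114 Nr2f2 and 242 of 620 reference cells, or 4.42% ± 6.22, 39.8% ± 15.6 and 40.5% ± 6.81 of the cells of a sample (SD, n = 8). All 4 of these Isl1 neurons were also positive for Chat, the enzyme that makes acetylcholine. The converse class, positive for Sst, Crh, Tac2 or Nts but not Prkcd, held 30 Isl1, 10 Nr2f2 and 160 reference cells, or 38.4% ± 21.2, 8.39% ± 6.86 and 24.4% ± 8.08. Prkcd together with another of these markers was found in 8 Isl1 and 4 Nr2f2 neurons. None of the 5 markers was positive in 32 Isl1 and 57 Nr2f2 neurons, 47.7% ± 26.3 and 49.4% ± 14 of a sample's cells, against 28.6% ± 8.58 in the reference. The wide spread in Isl1 neurons comes with only 6 to 17 cells in each of the 8 samples.

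**Figure D3:**
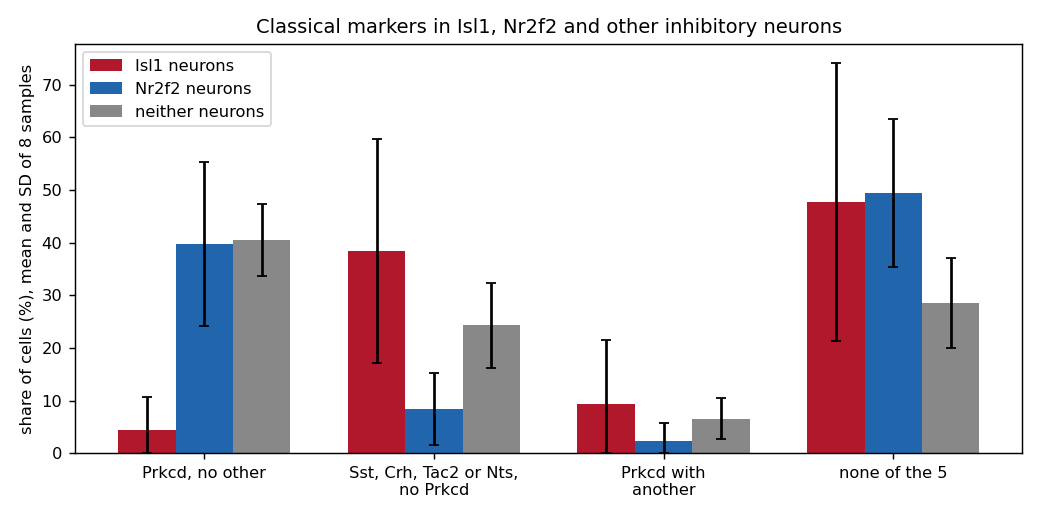
Share of cells (%, y axis) with 4 combinations of Prkcd, Sst, Crh, Tac2 and Nts in Isl1 neurons (red), Nr2f2 neurons (blue) and inhibitory neurons positive for neither (grey). Bars are means and lines the SD of 8 samples. Prkcd alone stands at 4.42% in Isl1 neurons and 39.8% in Nr2f2 neurons, and the shares with none of the 5 markers are 47.7% and 49.4%.

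Of the 4 classical markers tested by summed counts, Tac2 was higher and Prkcd lower in Isl1 neurons, Sst and Nts did not pass, and the median log2 difference of the 4 was 3.30 beside -0.03 over all genes tested. Tac2 ranged from 1.5 to 2094 CPM with a median of 601 in Isl1 neurons, and from 0 to 790 with a median of 1.87 in Nr2f2 neurons. The ranges overlapped, but Tac2 was higher in Isl1 neurons in 8 of 8 samples, with a log2 difference of 6.64 ± 0.94 (SE) and an adjusted p of 0.00276. Tac2-positive cells were 27 of 74 Isl1 and 2 of 114 Nr2f2 neurons. Prkcd ranged from 2.66 to 393 CPM with a median of 31.2 in Isl1 neurons, and from 94.2 to 744 with a median of 197 in Nr2f2 neurons. It was lower in Isl1 neurons in 7 of 8 samples, by a log2 difference of -2.52 ± 0.54 (adjusted p = 0.0346), and passed in 3 of the 8 fits that left out a sample, with the highest adjusted p, 0.108, without sample 4. The share of Prkcd-positive cells differed by -28.3 percentage points ± 10.4 (SD) and was lower in Isl1 neurons in 8 of 8 samples, and the difference was -29.6 with thinned counts and -12.7 with positivity at 1 count.

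Nts was positive in 16 Isl1 and 3 Nr2f2 neurons and Sst in 10 and 8. The log2 difference of Nts was 5.67 ± 1.45, with an adjusted p of 0.0749 (higher in 7 of 8 samples), and that of Sst was 0.92 ± 1.52, with an adjusted p of 0.895 (higher in 4 of 8). Nts passed in 6 of 15 other settings, among them thinned counts (adjusted p = 0.0291), and without sample 4 (adjusted p = 0.00243). The direction of Sst changed with the setting and without sample 9, where it was -0.38. Against the reference cells Sst was lower in Nr2f2 neurons, by -4.72 (adjusted p = 0.01), and its value in Isl1 neurons was -3.23 (adjusted p = 0.0713). Crh was too low to test between the classes and was positive in 9 Isl1 neurons and 1 Nr2f2 neuron. Against the reference Crh was lower in Nr2f2 neurons, by -6.64 (adjusted p = 0.0167).

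Of 12 neuropeptide genes tested besides the markers above, Pdyn, Pnoc and Tac1 were higher in Isl1 neurons, Penk was lower and 8 did not pass, with a median log2 difference of -0.24 beside -0.03 over all genes. Pomc, another opioid precursor, was at -0.10 ± 1.01 (adjusted p = 0.989). Pdyn encodes prodynorphin, the precursor of ligands of the kappa opioid receptor. Its level was 117 to 618 CPM with a median of 202 in Isl1 neurons, and 0.652 to 59.7 with a median of 2.55 in Nr2f2 neurons. The 2 ranges did not overlap, and the log2 difference was 5.13 ± 0.64 (adjusted p = 0.00156, higher in 8 of 8 samples). Pdyn was positive in 23 of 74 Isl1 neurons and 4 of 114 Nr2f2 neurons, a difference in share of 25.8 percentage points ± 11.8 (SD, n = 8). Beside the reference cells, where the median was 380 CPM, Pdyn was lower in Nr2f2 neurons by -5.41 (adjusted p = 9.12e-05), and its value in Isl1 neurons was -0.80 (adjusted p = 0.502).

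Penk encodes proenkephalin, the precursor of the enkephalins, ligands of delta and mu opioid receptors. It stood at 109 to 774 CPM with a median of 382 in Isl1 neurons and at 1130 to 2683 with a median of 1641 in Nr2f2 neurons. No Isl1 sum reached the lowest Nr2f2 sum. The log2 difference was -2.22 ± 0.35 (adjusted p = 0.00586, lower in 8 of 8 samples), and Penk was positive in 36 of 74 Isl1 and 97 of 114 Nr2f2 neurons. Here it was the Isl1 neurons that stood apart from the reference, by -2.53 (adjusted p = 6.59e-05), while the value of Nr2f2 neurons was -0.39 (adjusted p = 0.825). Pdyn and Penk thus had opposite signs between the classes, and each was low against the reference in a different class.

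Pnoc encodes prepronociceptin, the precursor of nociceptin. Its level was 44.0 to 322 CPM with a median of 206 in Isl1 neurons, and 0 to 60.3 with a median of 0.479 in Nr2f2 neurons, where 4 of 8 sums held no count. It was higher in Isl1 neurons in 7 of 8 samples, by 5.95 ± 1.05 (adjusted p = 0.0113), and positive in 39 of 74 against 4 of 114 cells. Tac1 encodes the precursor of substance P and neurokinin A. It stood at 26.4 to 351 CPM with a median of 121 in Isl1 neurons and at 0 to 39.3 with a median of 6.10 in Nr2f2 neurons, and differed by 4.39 ± 0.91 (adjusted p = 0.0272, higher in 8 of 8). Tac1 passed in 3 of the 8 fits that left out a sample, with the highest adjusted p, 0.0796, without sample 7.

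Adm and Ghrh, peptide genes outside that list, were lower in Isl1 neurons. Adm, which encodes the vasoactive peptide adrenomedullin, had 0 counts in the Isl1 sums of all 8 samples and 7.33 to 34.9 CPM in Nr2f2 neurons, with a median of 23.6. With the floor set at 3 counts over all Isl1 neurons, it was at least 102-fold lower in Isl1 neurons (adjusted p = 0.048), but it passed in 0 of the 8 fits that left out a sample, where the adjusted p reached 0.0974. Ghrh, which encodes growth hormone-releasing hormone, was at 0 in 6 of 8 Isl1 sums and reached 9.37 CPM, against 7.33 to 56.1 with a median of 20.8 in Nr2f2 neurons (log2 difference -5.99 ± 1.15, adjusted p = 0.0191). It passed in 4 of the 8 fits that left out a sample, with the highest adjusted p, 0.0667, without sample 6. Cartpt, the precursor of CART peptides, did not pass, at -1.72 ± 0.80 (adjusted p = 0.423), with 15 of 74 Isl1 and 27 of 114 Nr2f2 neurons positive. Of 16 neuropeptide receptor genes tested none passed, with a median of 0.03. Among them Oprk1, the kappa opioid receptor, was at -2.72 ± 1.03 (adjusted p = 0.285), and Tacr3, the neurokinin B receptor, at 4.43 ± 1.35 (adjusted p = 0.154).

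**Figure D4:**
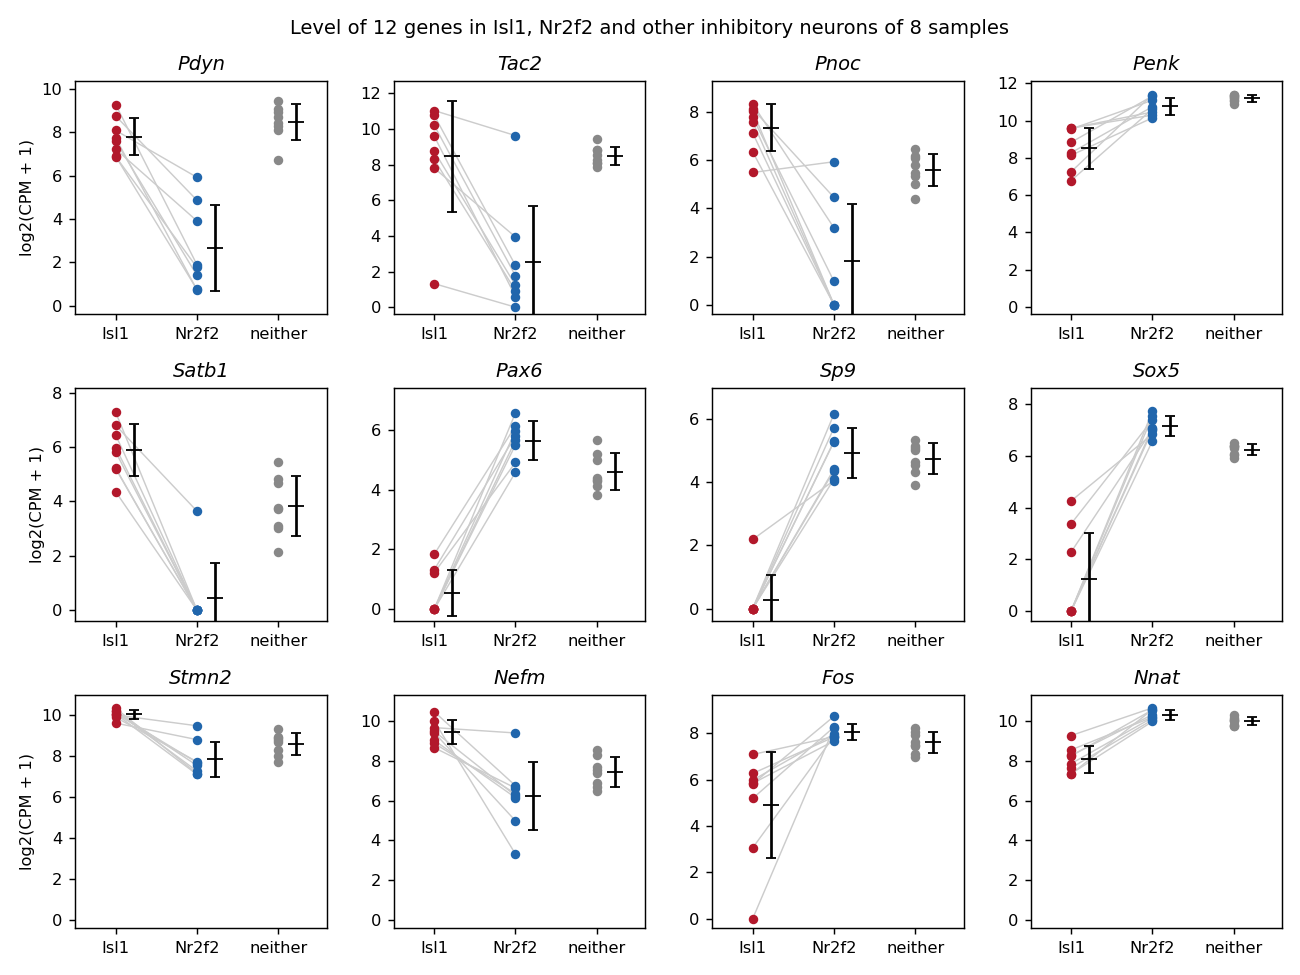
Level of 12 genes, as log2(CPM + 1) on the y axis, in the summed counts of Isl1 neurons (red), Nr2f2 neurons (blue) and inhibitory neurons positive for neither (grey) of 8 samples. Grey lines join the Isl1 and Nr2f2 sums of a sample, and black bars give the mean and SD. Pax6, Sp9 and Sox5 lie at 0 in 5, 7 and 5 of the 8 Isl1 sums and Satb1 in 7 of the 8 Nr2f2 sums, while Nnat does not overlap between the classes.

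Transcription factors of the ganglionic eminences, the embryonic source of forebrain GABAergic neurons, gave some of the largest differences in both directions. Satb1, a chromatin organizer known from interneurons of the medial ganglionic eminence, stood at 19.5 to 154 CPM with a median of 58.7 in Isl1 neurons. It had no count in 7 of 8 Nr2f2 sums and 11.5 CPM in the remaining sum. The log2 difference was 7.65 ± 1.01 (adjusted p = 0.00214), and the call held whichever sample was left out. Satb1 was nonetheless positive in only 12 of 74 Isl1 neurons and in 1 of 114 Nr2f2 neurons. Tshz2, a zinc finger homeobox factor, ranged from 244 to 382 CPM with a median of 281 in Isl1 neurons and from 46.3 to 162 with a median of 113 in Nr2f2 neurons. The classes did not overlap, and the log2 difference was 1.49 ± 0.20 (adjusted p = 0.0023).

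Several factors were nearly absent from Isl1 neurons. Pax6, a paired-box factor that marks progenitors and some neurons of the dorsal lateral ganglionic eminence, was at 0 in 5 of 8 Isl1 sums, with a highest value of 2.57 CPM. In Nr2f2 neurons it stood at 23.0 to 94.2 CPM with a median of 52.1, for a log2 difference of -6.81 ± 1.01 (adjusted p = 0.00392). It was positive in 0 of 74 Isl1 neurons, which allows a share of up to 4.05%, and in 23 of 114 Nr2f2 neurons. Sp9, a zinc finger factor of the lateral ganglionic eminence, was at 0 in 7 of 8 Isl1 sums and at 15.7 to 71.0 CPM in Nr2f2 neurons with a median of 29.3 (log2 difference -7.29 ± 1.25, adjusted p = 0.00974). Sox5, an SRY-box factor of migrating and maturing neurons, was at 0 in 5 Isl1 sums and at most 18.2 CPM, against 94.5 to 211 in Nr2f2 neurons with a median of 132 (-6.12 ± 0.89, adjusted p = 0.00313). It was positive in 1 Isl1 and 52 Nr2f2 neurons. These 3 genes were also lower in Isl1 neurons than in the reference, by -5.64, -6.14 and -4.55 for Pax6, Sp9 and Sox5 (adjusted p = 2.76e-04, 7.79e-04 and 4.47e-04). In Nr2f2 neurons the same values were 1.06, 0.22 and 0.97, none of which passed.

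Sox2, an SRY-box factor best known from neural stem cells, reached 44.0 CPM in Isl1 neurons with a median of 3.65, and stood at 75.4 to 211 with a median of 170.2 in Nr2f2 neurons. It was positive in 3 of 74 Isl1, 52 of 114 Nr2f2 and 200 of 620 reference cells, with a log2 difference of -4.74 ± 0.77 (adjusted p = 0.00633). The long non-coding Sox2ot, which overlaps Sox2, differed by -4.60 ± 0.87 (adjusted p = 0.0168, and 0.0508 without sample 2); the sources used here do not state the strand of counting, and reads of the 2 genes cannot be told apart. Id4, an inhibitor of bHLH factors, was lower in Isl1 neurons by -3.08 ± 0.53 (adjusted p = 0.00986), at 1.22 to 32.2 against 39.6 to 147 CPM, which do not overlap. Meis2, a TALE homeobox factor of striatal neurons, ranged from 61.8 to 243 CPM in Isl1 and 190.2 to 309 in Nr2f2 neurons, which overlap, and differed by -1.17 ± 0.24 (adjusted p = 0.0269). Meis2 passed in 3 of the 8 fits that left out a sample, with the highest adjusted p, 0.0919, without sample 4.

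By list, 1 of 14 factors of the lateral ganglionic eminence and striatum was higher and 3 were lower, with a median of 0.07. Of 9 factors of the medial and caudal eminences 1 was higher and 2 lower, with a median of 0.22. Striatal factors that did not pass include Bcl11b at 0.03 ± 0.30, Foxp1 at 0.06 ± 0.43 and Bcl11a at 0.07 ± 0.15. Of 7 LIM homeobox and LIM-only genes tested besides Isl1, none passed, with a median of -0.20.

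Among 14 nuclear receptor genes besides Nr2f2, 1 was higher and 1 lower, with a median of -0.43 beside -0.03 over all genes. Rxrg, a retinoid X receptor of striatal neurons, ranged from 34.1 to 240 CPM in Isl1 neurons with a median of 137 and from 3.19 to 116 in Nr2f2 neurons with a median of 18.8. It differed by 2.49 ± 0.54 (adjusted p = 0.0377, higher in 7 of 8 samples). Nr3c1, the glucocorticoid receptor, stood at 25.7 to 201 CPM in Isl1 neurons with a median of 144 and at 202 to 395 in Nr2f2 neurons with a median of 306 (-1.33 ± 0.30, adjusted p = 0.0452). The ranges of the classes lay close but did not overlap. Rxrg passed in 2 and Nr3c1 in 1 of the 8 fits that left out a sample, with the highest adjusted p at 0.112 without sample 4 and 0.131 without sample 6. Nr2f1, the close relative of Nr2f2, did not pass, at -1.33 ± 0.41 (adjusted p = 0.152). Cyp26b1, an enzyme that degrades retinoic acid, was at 0 in 5 of 8 Isl1 sums and reached 2.57 CPM, against 13.8 to 67.5 in Nr2f2 neurons with a median of 45.8 (-6.55 ± 0.99, adjusted p = 0.00434).

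Of 8 neurofilament and stathmin genes tested, which encode cytoskeletal proteins, Stmn2, Nefm, Nefl and Stmn3 were higher in Isl1 neurons, 4 did not pass and none was lower, with a median log2 difference of 0.61. Stmn2, a stathmin that regulates microtubules in growing axons, ranged from 769 to 1267 CPM in Isl1 neurons with a median of 1055 and from 135 to 701 in Nr2f2 neurons with a median of 192. The classes did not overlap, and the difference was 2.22 ± 0.29 (adjusted p = 0.00214, 8 of 8 samples). Stmn2 was positive in 72 of 74 Isl1 and 56 of 114 Nr2f2 neurons. Nefm, the medium neurofilament subunit, stood at 404 to 1416 CPM with a median of 700.4 in Isl1 neurons and at 8.93 to 674 with a median of 77.9 in Nr2f2 neurons, and was positive in 59 and 17 cells. It differed by 3.15 ± 0.52 (adjusted p = 0.00677), and the light subunit Nefl by 2.31 ± 0.50 (adjusted p = 0.0377) with 63 and 20 positive cells. Stmn3 differed by 0.56 ± 0.11 (adjusted p = 0.0258). Nefl and Stmn3 passed in 2 of the 8 fits that left out a sample, where the adjusted p reached 0.0934 without sample 7 and 0.0839 without sample 4. The heavy subunit Nefh was at 0.21 ± 0.63 and Ina, another intermediate filament, at -0.09 ± 0.19. Against the reference Stmn2 and Nefm were higher in Isl1 neurons, by 1.45 and 2.06 (adjusted p = 0.00419 and 0.0106), and stood at -0.65 and -0.93 in Nr2f2 neurons, where neither passed.

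Of 11 genes listed as general neuron genes, Stmn2, Nefl, Tubb3 and Eno2 were higher in Isl1 neurons, 7 did not pass and none was lower, with a median of 0.43. Tubb3, the neuronal beta-tubulin, ranged from 286 to 708 CPM in Isl1 and from 209.9 to 456 in Nr2f2 neurons and differed by 1.04 ± 0.18 (adjusted p = 0.00927). Eno2, neuronal enolase, differed by 0.65 ± 0.11 (adjusted p = 0.00809). Syt1, Rbfox3, Thy1 and Gap43 did not pass, at -0.45, -0.04, 0.06 and 0.20. Isl1 neurons were also the class with more gene counts per cell. In the cells thinned to 74000 counts, with shallower cells left out, Tubb3 was at 1.04 (adjusted p = 0.00652), Eno2 at 0.66 (adjusted p = 0.00385), Stmn2 at 2.19 (adjusted p = 6.58e-05) and Nefl at 2.34 (adjusted p = 0.00652).

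Nnat, Gnas and Syt4 had the lowest adjusted p-values outside the genes of the rule and were named after their values were seen. Genes of the rule entered the adjustment, which can make such small adjusted p-values lower than they would be without them. Nnat encodes neuronatin, a small membrane proteolipid, and is an imprinted gene. It ranged from 162 to 622 CPM with a median of 269 in Isl1 neurons and from 1017 to 1634 with a median of 1236 in Nr2f2 neurons. The gap between the classes was wide, with a log2 difference of -2.24 ± 0.18 (adjusted p = 4.07e-05, 8 of 8 samples). Nnat passed whichever sample was left out and in 18 of 18 other settings, and it was lower in Isl1 neurons than in the reference by -1.87 (adjusted p = 1.78e-05).

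Gnas, an imprinted locus that encodes the stimulatory G protein alpha subunit, ranged from 2097 to 5502 CPM with a median of 3122 in Isl1 neurons and from 558 to 2029 with a median of 757 in Nr2f2 neurons (1.86 ± 0.17, adjusted p = 1.18e-04). Gnas stood apart from the reference on both sides, higher in Isl1 neurons by 0.94 (adjusted p = 0.00783) and lower in Nr2f2 neurons by -0.91 (adjusted p = 0.0215). Syt4, a synaptotagmin of dense-core vesicles, ranged from 414 to 1050 CPM in Isl1 and 85.5 to 373 in Nr2f2 neurons, which do not overlap (2.20 ± 0.21, adjusted p = 1.38e-04). Syt4 was positive in 70 of 74 Isl1 and 43 of 114 Nr2f2 neurons. Dlk1, an imprinted gene for a Notch ligand-like membrane protein, was lower in Isl1 neurons, as Nnat was. It reached 34.6 CPM in Isl1 neurons with a median of 7.90, against 117 to 225 with a median of 171 in Nr2f2 neurons (-4.32 ± 0.69, adjusted p = 0.00586).

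Immediate early genes are those that neurons transcribe first after strong activity. Of 11 tested in Isl1 against Nr2f2 neurons, Fos, Junb and Egr1 were lower and 8 did not pass. The median log2 difference of the list was -1.54 beside -0.03 over all genes, and 0 of the 11 lay above 0. Fos ranged from 0 to 135 CPM with a median of 55.8 in Isl1 neurons and from 202 to 424 with a median of 241 in Nr2f2 neurons. The classes did not overlap, and the difference was -2.70 ± 0.55 (adjusted p = 0.0261). Junb ranged from 30.5 to 148 CPM with a median of 78.6 in Isl1 neurons and from 133 to 394 with a median of 306 in Nr2f2 neurons (-1.83 ± 0.33, adjusted p = 0.0138, lower in 7 of 8 samples). Egr1 differed by -1.52 ± 0.31 (adjusted p = 0.0258). Npas4, a factor induced by neuronal activity, was at -3.53 ± 0.92 (adjusted p = 0.0821), and Arc, an early gene of synapses, at -0.41 ± 1.10. Against the reference Fos, Junb and Egr1 were lower in Isl1 neurons, by -2.01, -1.56 and -1.14 (adjusted p = 0.0163, 0.00238 and 0.031), and the values in Nr2f2 neurons were 0.42, 0.21 and 0.32, none of which passed. Fos and Egr1 passed in 3 of the 8 fits that left out a sample, with the highest adjusted p without sample 6, at 0.084 and 0.0837. With thinned counts Fos, Junb and Egr1 were at -2.71, -1.88 and -1.55 (adjusted p = 0.00652, 0.00385 and 0.0195). With Mbp-positive cells left out the adjusted p was 0.0875, 0.0144 and 0.175.

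All 11 early genes lay below 0, so the stretches before their start sites are shown for Fos and Junb, from RefSeq on GRCm38.p6, 250 bases upstream and read 5′ to 3′ on the strand of the gene. Capitals mark TGACG or, on the other strand, CGTCA, the core of the cAMP response element to which CREB binds. Fos lies on the plus strand at chr12:85473640-85473889 and Junb on the minus strand at chr8:84978749-84978998.
Fos: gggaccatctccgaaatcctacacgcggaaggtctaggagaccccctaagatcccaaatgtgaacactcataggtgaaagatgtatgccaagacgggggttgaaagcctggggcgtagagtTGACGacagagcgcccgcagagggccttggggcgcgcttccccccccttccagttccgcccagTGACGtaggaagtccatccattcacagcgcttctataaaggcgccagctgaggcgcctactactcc
Junb: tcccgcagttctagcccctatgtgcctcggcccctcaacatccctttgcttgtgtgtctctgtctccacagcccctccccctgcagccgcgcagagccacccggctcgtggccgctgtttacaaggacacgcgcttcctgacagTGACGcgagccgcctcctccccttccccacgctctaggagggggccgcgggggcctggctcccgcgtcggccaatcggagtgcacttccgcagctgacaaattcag
The motif occurs 2 times before Fos and 1 time before Junb. Promoters on 1 chromosome were left out before genes were matched, and the counts that follow cover the promoters kept. Of the 11 early genes tested 9 were matched to a promoter, and 8 of these held the motif. Egr1 was not among the 9. The motif was found in 17.9% of the 27025 promoters kept and in 29.9% of the 6374 that belong to genes tested here. TATAA, or TTATA on the other strand, cannot overlap a match of the motif. It was held by 3 of the 9, against 23.5% of the promoters kept and 10.5% of those of genes tested. A match describes the sequence and is no measure of binding.

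Calcium-binding proteins differed in single members. Of 20 tested 1 was higher and 1 lower, with a median of 0.15. Pcp4, a small modulator of calmodulin, stood at 217 to 598 CPM with a median of 310.2 in Isl1 neurons and at 1.63 to 127 with a median of 28.9 in Nr2f2 neurons, with no overlap (3.89 ± 0.50, adjusted p = 0.00179). Pcp4 was positive in 49 of 74 and 9 of 114 cells, and against the reference it was lower in Nr2f2 neurons by -3.10 (adjusted p = 0.00122). Ncald, the calcium sensor neurocalcin delta, went the other way, at 86.9 to 213 CPM in Isl1 and 318 to 533 in Nr2f2 neurons (-1.61 ± 0.21, adjusted p = 0.00214). Ncald was below the reference in Isl1 neurons, by -0.68 (adjusted p = 0.0368), and above it in Nr2f2 neurons, by 0.92 (adjusted p = 0.0092). Calb2, or calretinin, did not pass between the classes at 1.95 ± 0.67 (adjusted p = 0.212), with 18 of 74 Isl1 and 9 of 114 Nr2f2 neurons positive. Calb1, or calbindin, was at 0.15 ± 0.15 and was higher than the reference in both classes, by 0.90 and 0.73 in Isl1 and Nr2f2 neurons (adjusted p = 0.00122 and 0.0128).

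Signalling genes known from striatal projection neurons were split. Of 21 such genes 2 were higher, 2 lower and 17 did not pass, with a median of -0.15. Arpp21, a regulator of calmodulin signalling, ranged from 172 to 577 CPM in Isl1 neurons with a median of 232 and from 36.5 to 195 in Nr2f2 neurons with a median of 123 (1.31 ± 0.30, adjusted p = 0.0469). It was below the reference in both classes, by -1.0 in Isl1 and -2.27 in Nr2f2 neurons (adjusted p = 0.0377 and 1.09e-04), and passed between the classes in 1 of the 8 fits that left out a sample, with the highest adjusted p, 0.12, without sample 6. Rgs4, which shortens G protein signals, was lower in Isl1 neurons, at 89.9 to 193 against 199.8 to 499.5 CPM (-1.41 ± 0.23, adjusted p = 0.00637). Rgs11, of the same family, was higher, at 38.6 to 118 against 0 to 26.2 CPM (5.25 ± 1.07, adjusted p = 0.0258), and passed in 3 of the 8 fits that left out a sample, with the highest adjusted p, 0.0865, without sample 4. Gpr101, an orphan G protein-coupled receptor, was higher in Isl1 neurons at 41.8 to 247 against 0.479 to 37.3 CPM (3.39 ± 0.62, adjusted p = 0.0141), though not without sample 7 (adjusted p = 0.051). Of 6 genes listed for the medial amygdala, bed nucleus and hypothalamus, Gpr101 was the 1 higher and Dlk1 the 1 lower.

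Ache, the enzyme that degrades acetylcholine, was the only member of the cholinergic list abundant enough to test. It ranged from 98.9 to 314 CPM with a median of 189 in Isl1 neurons and from 36.5 to 118 with a median of 55.3 in Nr2f2 neurons (1.64 ± 0.25, adjusted p = 0.00467), and it was positive in 44 of 74 and 25 of 114 cells. Chat, the enzyme that makes acetylcholine, was positive in 6 Isl1 and 0 Nr2f2 neurons, and 0 of 114 allows a share of up to 2.63%. All 6 Chat-positive Isl1 neurons were positive for Nnat, Pcp4, Nefm and Stmn2, 4 for Prkcd and 0 for Pdyn, Sst, Crh, Tac2 or Nts. Those 4 are all the Isl1 neurons with Prkcd and none of the other classical markers. With Chat-positive cells left out, 113 of the 129 called genes that could be tested were called again.

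Adhesion and synapse genes gave few calls. Of 34 genes tested from a list of cadherins, contactins and related adhesion genes none was lower in Isl1 neurons, and the median was 0.34. Cntn1, or contactin 1, was higher, at 339 to 830.2 CPM in Isl1 and 139 to 275 in Nr2f2 neurons, which do not overlap (1.20 ± 0.17, adjusted p = 0.00285). Ctnna1, or alpha-catenin, which links cadherins to actin, was lower in Isl1 neurons, at 0 in 5 of 8 sums against 24.4 to 65.7 CPM (-5.42 ± 1.23, adjusted p = 0.0435), and passed in 1 of the 8 fits that left out a sample, with the highest adjusted p, 0.112, without sample 4. Cald1, an actin-binding caldesmon, was lower at 2.66 to 36.0 against 76.2 to 355 CPM (-2.65 ± 0.47, adjusted p = 0.0109), but its adjusted p with thinned counts was 0.142.

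Membrane and matrix genes complete the largest differences. Chst15, a sulfotransferase of chondroitin sulfate, stood at 13.5 to 215 CPM with a median of 79.7 in Isl1 neurons and was at 0 in 5 of 8 Nr2f2 sums, with a highest value of 11.2 (7.17 ± 0.99, adjusted p = 0.00244). It was positive in 23 of 74 Isl1 neurons and 0 of 114 Nr2f2 neurons. Lhfpl5, a tetraspan protein, Cd302, a lectin receptor, Sorcs3, a sortilin-related sorting receptor, and Mpped1, a putative phosphoesterase, were higher by 6.18, 5.58, 3.81 and 3.79 (adjusted p = 0.022, 0.0261, 0.0241 and 0.0115). Mpped1 passed whichever sample was left out, but Lhfpl5, Cd302 and Sorcs3 passed in 3, 2 and 4 of the 8 such fits, where the adjusted p reached 0.0691 without sample 6, 0.095 without sample 4 and 0.0767 without sample 4. The non-coding Rmst was higher by 5.17 ± 1.12 (adjusted p = 0.0372) but passed in 0 of the 6 fits without a sample that tested it. Further genes higher in Isl1 neurons by the same rule were 2610017I09Rik, 6330512M04Rik and 2900026A02Rik, at 6.83, 4.55 and 4.50 (adjusted p = 0.016, 0.0258 and 0.0418). They passed in 4 of 7, 2 of 8 and 1 of 6 fits that left out a sample, and their adjusted p reached 0.0689 and 0.0786 without sample 6 and 0.095 without sample 4.

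On the Nr2f2 side Coch, an extracellular matrix protein, had a median of 0.574 CPM in Isl1 and 76.1 in Nr2f2 neurons (-5.42 ± 0.87, adjusted p = 0.0059), although 1 Isl1 sum at 57.7 lay within the Nr2f2 range. Upk1b, a uroplakin of the tetraspanin family, reached 20.5 CPM in Isl1 neurons against 29.3 to 163 in Nr2f2 neurons (-5.11 ± 0.98, adjusted p = 0.019) and was positive in 1 and 44 cells. Upk1b passed in 4 of the 8 fits that left out a sample, with the highest adjusted p, 0.0664, without sample 6. Chodl, a lectin-like membrane protein known from a rare type of somatostatin interneuron, had medians of 17.5 and 226 CPM (-3.41 ± 0.74, adjusted p = 0.0362, lower in Isl1 neurons in 7 of 8 samples), and passed in 2 of the 8 such fits, with the highest adjusted p, 0.103, without sample 6. Of 8 interneuron genes Chodl was lower, Tac1 higher and 6 did not pass. The median of the 8 was -1.88 beside -0.03 over all genes, and 3 lay above 0. Of the 4 genes tested from a list of intercalated cells, the GABAergic islands beside the central nucleus, Pax6, Penk and Meis2 were lower in Isl1 neurons and Syt10 was at -1.68 ± 0.85 (adjusted p = 0.481).

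Ion channel, transmitter receptor and axon guidance genes gave 1 call. None of 37 potassium channel genes passed (median 0.04), and 1 of 36 sodium, calcium, HCN and TRP channel genes did (median -0.00274), namely the sodium channel subunit Scn3b at 0.53 ± 0.12 (adjusted p = 0.0431). Scn3b passed in 1 of the 8 fits that left out a sample, with the highest adjusted p, 0.12, without sample 6, and its adjusted p with thinned counts was 0.0524. None of 19 GABA and glycine receptor genes (median 0.43), 20 glutamate receptor genes (median -0.11) or 8 receptor genes for monoamines, acetylcholine, adenosine and cannabinoids (median 0.66) passed. None of 29 axon guidance genes passed (median -0.14). Members nearest to passing included Kcnh1, a voltage-gated potassium channel, at 6.31 ± 1.49 (adjusted p = 0.0524), the guidance receptor Robo2 at 3.02 ± 0.70 (adjusted p = 0.0502) and the AMPA receptor subunit Gria1 at -0.68 ± 0.16 (adjusted p = 0.0534). A value that did not pass does not show that the classes are alike in that gene.

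**Figure D5:**
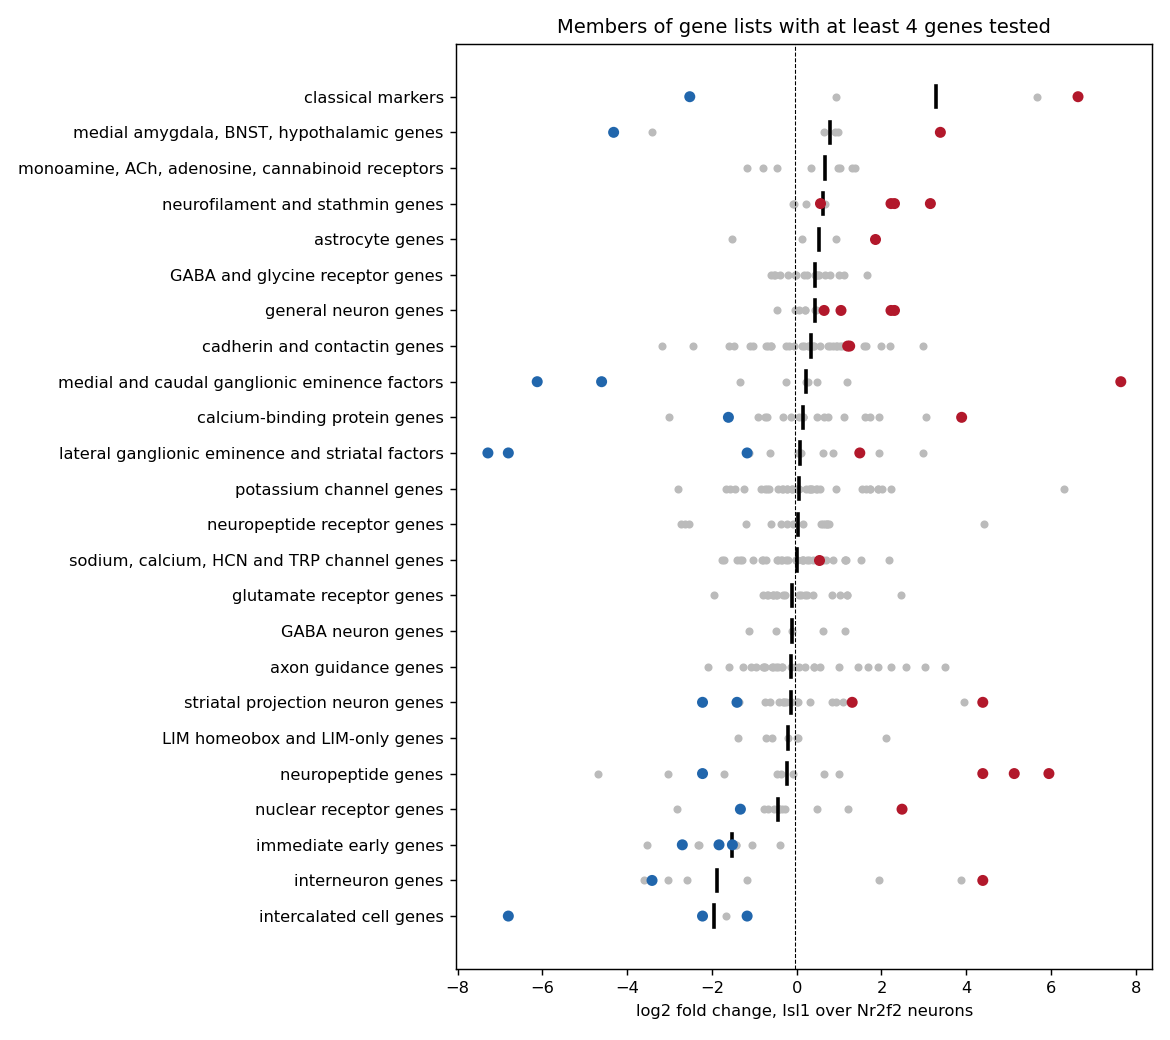
Members of gene lists with at least 4 genes tested, 1 row per list, with the log2 fold change of Isl1 over Nr2f2 neurons on the x axis. Red points were higher and blue points lower in Isl1 neurons at an adjusted p under 0.05, grey points did not pass, black bars are the list's median and the dashed line is the median of all genes tested (-0.03). The 11 immediate early genes all lie left of 0, and the ion channel lists are grey but for Scn3b.

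The classes were not uniform inside, and these values are counts of positive cells with no test. In Isl1 neurons, the 38 cells with Sst, Crh, Tac2 or Nts and the 32 with none of the 5 classical markers had like shares for most genes. Pcp4 was positive in 25 of 38 and 20 of 32, Nefm in 28 and 27, Pdyn in 12 and 11, Penk in 19 and 16, Pnoc in 20 and 16, and Stmn2 in 37 and 31. Calb2 was positive in 7 of 38 and 11 of 32. Among the 27 Tac2-positive Isl1 neurons 9 were positive for Crh, and among the 47 without Tac2 there were 0.

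Nr2f2 neurons with Prkcd and those with none of the 5 markers had other shares for several genes. The 10 with Sst, Crh, Tac2 or Nts but no Prkcd are in neither group. Cartpt was positive in 26 of the 47 Prkcd-positive cells and in 1 of the 57 with none of the 5 markers, and Sox5 in 32 and 18. Stmn2 was positive in 12 of 47 and 36 of 57, and Nefm in 0 of 47 and 14 of 57. Pax6 was positive in 7 and 13, Penk in 40 and 49, and Nnat in 47 and 53. Penk and Nnat were thus common in Nr2f2 neurons with Prkcd and in those with none of the 5 markers. Leaving out cells positive for any of the 5 markers, with a minimum of 2 cells per class and sample, left 31 Isl1 and 53 Nr2f2 neurons. Among these Nnat was at -2.33 (adjusted p = 0.0051), Pcp4 at 3.83 (adjusted p = 0.0101), Ncald at -1.52 (adjusted p = 0.0101) and Stmn2 at 1.65 (adjusted p = 0.0182). In the same cells Pdyn was at 5.07 (adjusted p = 0.147) and Penk at -2.53 (adjusted p = 0.285).

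Markers of other cell types were low but not equal between the classes. The summed level of 14 oligodendrocyte genes was 51.0 to 145 CPM in Isl1 and 116 to 204 in Nr2f2 neurons, higher in Isl1 neurons in 0 of 8 samples, with Mog, Mag, Mobp, Olig1 and Olig2 at 0 in both. Mbp, the main myelin protein gene, was positive in 16 of 74 and 25 of 114 cells. Leaving those cells out, which drops to 7 samples, kept 56 of the 125 called genes that could be tested, all 125 with the same sign. The sum of 10 astrocyte genes was 252 to 822 CPM in Isl1 and 154 to 373 in Nr2f2 neurons. It was higher in Isl1 neurons in 8 of 8 samples. Gfap, Gja1 and Mlc1 were at 0 in both classes, and Aqp4, Aldh1l1 and Slc1a3 were at 0 in Isl1 neurons only. The astrocyte gene that passed was Aldoc, the brain aldolase, at 105 to 652 CPM in Isl1 and 33.8 to 272 in Nr2f2 neurons (1.85 ± 0.37, adjusted p = 0.0246), with 40 of 74 and 25 of 114 cells positive. The medians of Aldoc were 372 CPM in Isl1 and 78.6 in Nr2f2 neurons, beside 526 and 185 for the sum of the 10 genes. Aldoc passed in 3 of the 8 fits that left out a sample, with the highest adjusted p, 0.0839, without sample 4, and its adjusted p was 0.12 without Mbp-positive cells. The sum of 8 microglial genes had medians of 17.3 and 3.44 CPM, with C1qa, C1qb, Cx3cr1, Tmem119 and P2ry12 at 0 in both, and that of 8 endothelial genes 68.8 and 89.2 CPM, with Pecam1 at 0 in both. The part of such RNA in the differences between the classes was not tested.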

How the data were processed

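Single-cell RNA-seq counts of mouse central amygdala were analysed. The table the authors deposited holds raw counts of 22601 genes by symbol, and of 91 ERCC spike-ins, in each cell, and a second table ties cells to samples. Per the submitters' processing notes, Seurat was among the tools and NCBIM37 the build. The sources used here do not give the aligner, annotation, strand of counting or any molecular identifiers. Counts may hold PCR copies, and the limits that a count of 0 allows (3 cells of the total) cover counting error only.

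Spike-ins were left out. Counts were summed per sample and class (12588995 counts in Isl1 and 11920767 in Nr2f2 neurons) and tested by the quasi-likelihood method of edgeR 4.0.16 in R 4.3.3, with filterByExpr, TMM scaling and the sample as block, with Benjamini-Hochberg adjustment over all genes tested. The adjustment covered 8893 genes, among them those genes of the class rule that passed the filter, whose own p-values are not given. Their presence can lower the adjusted p-values of other genes, most of all the smallest. Samples are paired because both classes come from the same sample. Levels are CPM of the sums without TMM factors, and fold changes are those of the fit. The SE given with a fold change is approximate: the absolute log2 fold change divided by the square root of the F of its quasi-likelihood test. The fit of Isl1 against Nr2f2 neurons was tested on simulated data, with 100 genes changed 2-fold and 100 changed 4-fold. It recovered 11% of the 2-fold and 52% of the 4-fold changes, with 3 false calls, so many real differences of such size can be missed. DESeq2 1.42.0 was an alternative, and matplotlib 3.10.9, scipy 1.17.1, pandas 2.3.3 and numpy 2.4.6 ran in Python 3.11.15.

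The members and gene lists were chosen with earlier results of these data known. The 32 lists hold 656 genes besides those of the rule, and the table has 620 of these (4 under older symbols), 347 of them tested, while 36 are not used here. Named genes come from a rule: on each side, the 15 largest folds among passing genes whose mean was 10 CPM or more and whose sign was shared by every sample; 4 or fewer passing members a list; Prkcd, Sst, Crh, Tac2, Nts, Penk, Calb2, Nefm, Isl1 and Nr2f2; and 3 added for their adjusted p. Other list members given with values that did not pass were chosen after their values were seen. The alternatives were other scaling, tools, filters, blocks, thresholds of positivity, depths, cell numbers and exclusions of cells, and leaving out each sample. Promoters came from RefSeq. A gene that met the rule for named genes is not reported here.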

Additional observations from a re-analysis of the deposited data

Results flagged for a closer look

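Of 66 results tested for a sample that stands apart from the others, 3 had one, and chance flags about 1 in 20. The values are log2 ratios of CPM, Isl1 over Nr2f2, within a sample, with 1 CPM added to each. Adm was less low in sample 1, at -3.06, than in the next sample, at -4.46. Nts was -6.09 in sample 4, where it was lower in Isl1 neurons, and 2.51 or higher in the other 7 samples. Gnas was 0.46 in sample 1 and 1.67 or higher in the others.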

How the results depend on the processing

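The 131 genes called between Isl1 and Nr2f2 neurons, 71 higher and 60 lower in Isl1 neurons, were all called again with median-of-ratios scaling and with DESeq2, and each of them that could be tested kept its sign in every alternative other than leaving out a sample, except that at 3 counts per 10000, where 103 of 107 did. The counts higher and lower were 346 and 310 with DESeq2, 168 and 112 with no filter, 280 and 241 from the fit of 3 classes and 213 and 197 with cells positive at 1 count. They were 22 and 8 with at least 8 cells per class (3 samples) and 33 and 31 with Mbp-positive cells left out. With cells with a classical marker left out and at least 2 cells per class, they were 7 and 9. Equal cell numbers gave 40 and 24, and sums per date field 36 and 33. At 3 counts per 10000 with at least 1 cell per class, chosen after seeing the data because no sample had 5 such cells of each class, they were 3 and 2. Fewer cells or samples enter most of these; otherwise the cause was not tested. Without the pairing of classes by sample (no replicate block) they were 80 and 60, and 107 of the 131 were called.

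As each sample was left out, 34 to 70 genes were higher and 27 to 67 lower. Against the cells with neither, this gave 54 to 102 higher and 94 to 181 lower in Isl1 neurons and 4 to 13 and 31 to 83 in Nr2f2 neurons. DESeq2 gave 293 and 555 in Isl1 and 63 and 251 in Nr2f2 neurons, and no filter 64 higher in Isl1 and 6 higher in Nr2f2 neurons.

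Sst, which passed in no setting, was -1.22 with at least 8 cells, -0.0195 without Mbp-positive cells, -0.32 with equal cell numbers, -0.34 at 3 counts per 10000, and -0.38 to 1.88 as each sample was left out. Aldoc was -0.0625 at 3 counts per 10000. In Nr2f2 neurons against the cells with neither, leaving out each sample gave -0.14 to 0.0170 for Ache, -0.0452 to 0.0894 for Stmn3 and -0.0281 to 0.53 for Aldoc, and no filter gave -0.0317 for Stmn3. The difference in share of Prkcd-positive cells was -12.7 points with positivity at 1 count.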
